A study of Homo sapiens with 3 samples.

Results

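The 10 genes described here encode modulators of the Wnt, BMP, Notch and fibroblast growth factor (FGF) pathways: DKK1, SHISA2, BAMBI, FLRT3, LRIG1, LRIG3, HEY1, HEY2, HES1 and NTN4. They are 10 of 19775 genes with a probe set of their own on the arrays, and they carried 18 of 41091 probe sets annotated to exactly 1 gene. The genes were chosen by their differences among these same arrays, mainly those between the peptide and the hormone, so all values below are a description. T47D cells, an estrogen receptor-positive line from a human breast carcinoma, spent 4 h in medium with 10% charcoal-stripped serum before treatment. The cultures then received 1 µM ERα17p (a synthetic peptide of the estrogen receptor α sequence), 1 µM estradiol (the natural ligand of that receptor) or 0.1% ethanol as the vehicle, and were harvested after 3 h. The labels name ethanol for the vehicle culture alone, so the solvent of the treated cultures is not known. There was 1 array per group, so no difference has an error between cultures and no test was made. RNA came from whole cultures, in which a smaller share of expressing cells and less RNA per cell cannot be told apart.

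In the canonical Wnt pathway, secreted Wnt proteins bind Frizzled receptors together with LRP5 or LRP6, and β-catenin then acts with TCF and LEF factors in the nucleus. BMP and TGF-β ligands act through receptor kinases that phosphorylate SMAD proteins. Notch is cleaved on contact with a ligand on a neighbouring cell, and its intracellular part binds RBPJ and switches on repressors of the HES and HEY families. FGF and ErbB receptors are tyrosine kinases, whose output is adjusted by membrane proteins with leucine-rich repeats. In the mammary epithelium these pathways are known for their parts in ductal growth and luminal cell fate.

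Values are taken as log2 and are relative to a baseline that is not stated, so only differences between arrays can be read and never the level of a gene. The vehicle array had the widest spread. Its probe set values had an SD of 0.434, against 0.166 on the ERα17p array and 0.158 on the estradiol array. For ACTB the 3′ less the 5′ control probe set was −0.17 on the ERα17p array, −0.29 on the estradiol array and 0.52 on the vehicle array, and 18S ribosomal RNA was 1.76 higher with ERα17p and 1.87 higher with estradiol than with vehicle. These differences go with every comparison against the vehicle below, and their part in it was not tested. Between the ERα17p and estradiol arrays, which do not involve the vehicle array, 18S differed by −0.12 and the ACTB measure by 0.12. The presence of luminal markers cannot be checked without levels. Between the ERα17p and estradiol arrays, 12 luminal markers differed by −0.55 to 0.50 and 13 measured markers of basal, stromal, blood and endothelial cells by −0.28 to 0.34, with 0 of either past 1.5-fold.

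Between the ERα17p and the estradiol arrays, SHISA2, LRIG3, FLRT3, BAMBI, DKK1 and NTN4 were higher by 1.5-fold or more with the peptide, and HEY2 was lower by that much. HES1, HEY1 and LRIG1 stayed under that size, which is 0.58 on the log2 scale. Over all genes, 0.521% passed 1.5-fold upwards and 0.607% downwards in this comparison, and nothing is read from the contrast because the members were picked on it. The median difference was 0.97 over the 10 genes and 0.01 over all genes. Counted from the highest difference, SHISA2 ranked 1, LRIG3 5, FLRT3 7, BAMBI 8, DKK1 12 and NTN4 15 of 19775 genes, and HEY2 ranked 8 from the lowest. At least 2-fold either way were 6 of the 10, against 0.147% of all genes. Every probe set was past 1.5-fold in 1 direction for 7 of the 10, against 0.946%. Of these, DKK1, SHISA2, BAMBI, LRIG3 and NTN4 have 1 probe set, so only FLRT3 and HEY2 show agreement of probe sets.

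Against the vehicle, 7 of the 10 genes passed 1.5-fold with the peptide and 5 with the hormone. The members were picked mainly on the difference between these agents. Nothing is therefore read from the gap between the counts or the medians of the agents below. With ERα17p, NTN4, FLRT3, LRIG3, DKK1, SHISA2 and BAMBI were at least 1.5-fold higher and HEY2 was lower, beside 6.88% of all genes higher and 8.76% lower. With estradiol, NTN4 and FLRT3 were at least 1.5-fold higher and HES1, SHISA2 and HEY1 lower, beside 6.48% and 8.42% of all genes. HEY1 was only just past the limit, at 1.502-fold. The median over the 10 genes was 0.79 with ERα17p and 0.21 with estradiol, each beside 0.00 over all genes. At least 2-fold either way were 5 of the 10 with ERα17p (3.77% of all genes) and 1 with estradiol (3.2%). Every probe set passed 1.5-fold in 1 direction for 7 of the 10 with ERα17p (10.6% of all genes) and for 2 with estradiol (9.99%). With ERα17p only FLRT3 and HEY2 of these have over 1 probe set. With estradiol they were NTN4 and SHISA2, which have 1 probe set each, so the criterion adds nothing there. Probe sets whose identifiers end in _s_at or _x_at are open to cross-hybridisation. Once they were dropped, the count past 1.5-fold with estradiol was 3, namely NTN4, HEY2 and SHISA2. The median with estradiol was then 0.46 over the 9 genes left. Both comparisons use the same vehicle array.

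**Figure D1:**
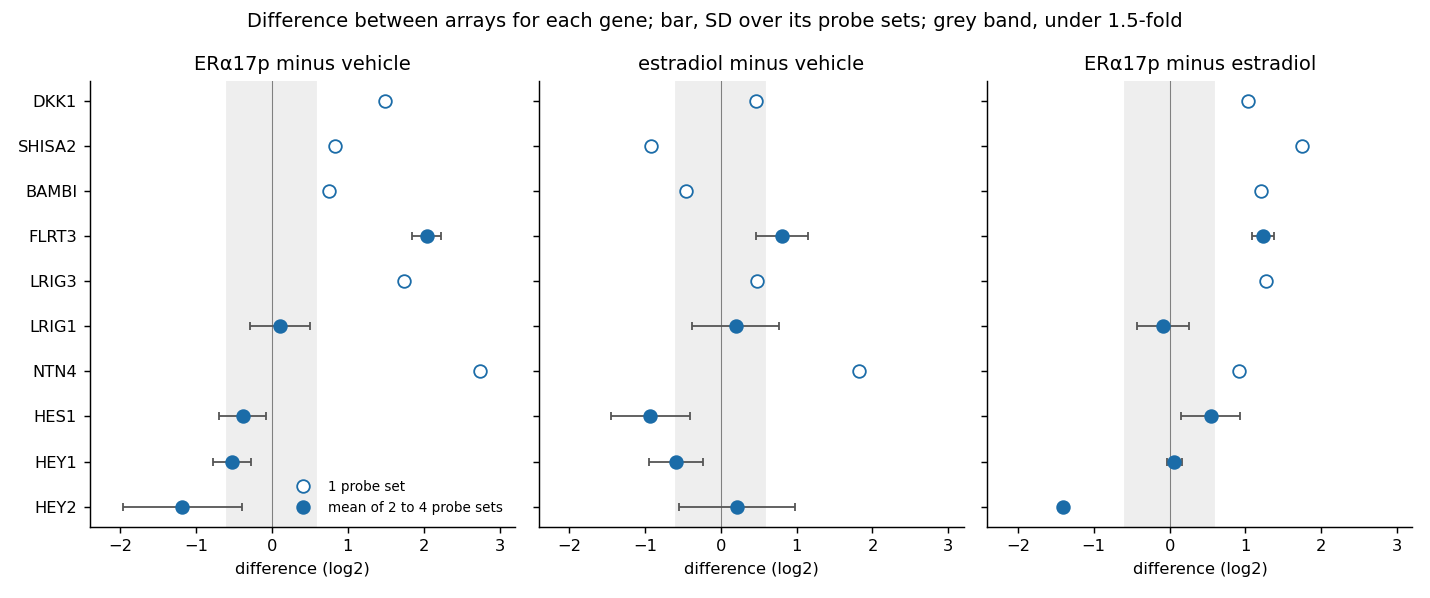
Difference between 2 arrays for each of the 10 genes on the log2 scale, in 3 panels (ERα17p minus vehicle, estradiol minus vehicle, ERα17p minus estradiol). Open circles stand for 1 probe set, filled circles for the mean of 2 to 4 probe sets with a bar of 1 SD over them, and the grey band for differences under 1.5-fold. In the right panel 6 genes lie right of the band and HEY2 lies left of it at −1.40, with a bar smaller than its symbol.

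DKK1, a secreted protein that binds LRP5 and LRP6 and so blocks canonical Wnt signalling, was highest with the peptide. Its probe set 204602_at had a value of 1.06 with ERα17p, 0.04 with estradiol and −0.42 with vehicle. The peptide array thus stood well above the other two, which were closer to each other. The difference was 1.03 for ERα17p minus estradiol (2.04-fold), 1.49 for ERα17p minus vehicle and 0.46 for estradiol minus vehicle. DKK1 is itself known as a target of β-catenin and TCF, and for that reason its promoter is shown, from RefSeq, with the TCF and LEF core (CTTTGA on either strand) and the TATA box in capitals. The 250 bases before its start lie on the plus strand of GRCh38.p14 at chr10:52314031-52314280.
DKK1: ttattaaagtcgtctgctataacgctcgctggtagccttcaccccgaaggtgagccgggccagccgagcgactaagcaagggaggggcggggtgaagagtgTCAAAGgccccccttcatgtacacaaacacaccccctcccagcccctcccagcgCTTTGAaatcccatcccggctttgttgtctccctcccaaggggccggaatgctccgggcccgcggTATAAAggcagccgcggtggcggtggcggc
The TCF and LEF cores begin 149 and 95 bases before the start, the first on the opposite strand, and the TATA box begins 30 bases before it. A TCF and LEF core was present in 12.9% of all 35116 promoter windows and a TATA box in 11.5%.

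SHISA2 encodes a membrane protein of the endoplasmic reticulum, of a family that in Xenopus holds back maturing Frizzled and FGF receptors. Probe set 230493_at had a value of 1.02 with ERα17p, −0.73 with estradiol and 0.19 with vehicle. The vehicle array lay between the treated arrays, with the peptide above it and the hormone below it. The difference was 1.75 for ERα17p minus estradiol (3.37-fold), 0.83 for ERα17p minus vehicle and −0.92 for estradiol minus vehicle.

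Other genes of the Wnt pathway were taken from a list of ligands, receptors, inhibitors and intracellular parts, of which 82 of 87 were measured. Past 1.5-fold, 1 was higher and 1 lower for ERα17p minus estradiol, 5 higher and 4 lower for ERα17p minus vehicle, and 6 higher and 7 lower for estradiol minus vehicle. As a share of the list, 2.44%, 10.98% and 15.85% passed either way in the same order. Beside them, 0.521%, 6.88% and 6.48% of all genes were higher and 0.607%, 8.76% and 8.42% lower. The list medians were 0.03, 0.02 and −0.01 in the same order. The list as a whole was thus centred near 0 in each comparison, as all genes were. LGR5, a receptor for R-spondins, was 0.69 ± 0.27 (SD over n = 2 probe sets) higher with ERα17p than with estradiol. TPBG, a membrane glycoprotein that inhibits canonical Wnt signalling, differed by −0.81 ± 0.46 (n = 2 probe sets). The receptors that DKK1 binds stood close to 0 between the treated arrays, with LRP6 at 0.06 ± 0.02 (n = 3 probe sets) and LRP5 at −0.10 ± 0.002 (n = 2 probe sets). KREMEN1 and KREMEN2, its co-receptors, stood at −0.09 ± 0.16 (n = 5 probe sets) and −0.15 (1 probe set). AXIN2, a general target of β-catenin, differed by −0.07 ± 0.14 (n = 4 probe sets), and CTNNB1, which encodes β-catenin, by 0.07 ± 0.17 (n = 3 probe sets). LRP5, LRP6, both KREMEN genes, CTNNB1 and AXIN2 thus stayed under 1.5-fold between the treated arrays. DKK1 was picked on that difference, and LGR5 and TPBG were named as the largest of the list, so no contrast with them is drawn. Against the vehicle the secreted BMP and Wnt inhibitor SOSTDC1 was higher on both treated arrays, by 1.67 with ERα17p and 1.70 with estradiol. The Wnt receptor RYK was 1.10 ± 0.57 higher with ERα17p and 1.10 ± 0.62 with estradiol (n = 3 probe sets). ZNRF3, a ligase that clears Frizzled from the membrane, was 0.66 higher than vehicle with ERα17p and 1.07 higher with estradiol (1 probe set). KREMEN2 stood at −1.04 with ERα17p and −0.89 with estradiol. These genes were named mostly for their size against the 1 vehicle array that both comparisons share, so nothing is read from their shared side.

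BAMBI, a pseudoreceptor of the TGF-β family that lacks a kinase domain, had the same order of arrays as SHISA2. Its probe set 203304_at had a value of 0.89 with ERα17p, −0.31 with estradiol and 0.14 with vehicle. The difference was 1.21 for ERα17p minus estradiol (2.31-fold), 0.75 for ERα17p minus vehicle and −0.45 for estradiol minus vehicle. BAMBI is known to be induced by TGF-β and BMP, and its promoter is shown, from RefSeq, with the GC-rich SMAD element GGCGCC in capitals. The 250 bases before its start lie on the plus strand of GRCh38.p14 at chr10:28677271-28677520.
BAMBI: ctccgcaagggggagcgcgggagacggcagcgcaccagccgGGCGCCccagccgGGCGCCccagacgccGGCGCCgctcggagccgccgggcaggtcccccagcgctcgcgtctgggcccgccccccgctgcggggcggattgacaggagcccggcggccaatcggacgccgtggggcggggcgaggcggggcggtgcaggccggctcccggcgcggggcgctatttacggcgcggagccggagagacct
The element begins 209, 196 and 181 bases before the start. It was present in 19.2% of all promoter windows, and 80.0% of the BAMBI window was G or C.

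Of the other BMP and TGF-β genes, 60 of 63 were measured. Past 1.5-fold, 2 were higher and 2 lower for ERα17p minus estradiol, 7 higher and 5 lower for ERα17p minus vehicle, and 6 higher and 4 lower for estradiol minus vehicle. Either way, 6.67%, 20.0% and 16.7% of the list passed in the same order. Of all genes, 0.521%, 6.88% and 6.48% were higher and 0.607%, 8.76% and 8.42% lower. The medians were 0.05, 0.04 and 0.02. TGFB2, which encodes a TGF-β ligand, was 0.79 ± 0.60 higher with ERα17p than with estradiol (n = 5 probe sets). Its co-receptor TGFBR3 differed by −0.95 ± 0.07 (n = 2 probe sets), and BMPER, a secreted BMP-binding protein, by −0.85 (1 probe set). The BMP receptor BMPR1B differed by 0.40 ± 0.32 (n = 3 probe sets), BMPR2 by 0.05 ± 0.26 (n = 6 probe sets) and the target gene ID1 by 0.16 (1 probe set). The related target ID2, named after its values were seen, was 0.73 ± 0.07 higher with ERα17p than with estradiol (n = 2 probe sets). TGFB2, TGFBR3, BMPER and ID2 were the 4 genes of the list past 1.5-fold between the treated arrays, and ID1, BMPR1B and BMPR2 were not past it. Against the vehicle, ID1 stood at −0.75 with ERα17p and −0.91 with estradiol. CRIM1, a membrane protein that binds BMPs, stood at 2.03 ± 1.09 with ERα17p and 1.49 ± 0.93 with estradiol (n = 3 probe sets), and TOB1, an antiproliferative protein that restrains SMAD signalling, at 1.34 ± 1.53 and 1.58 ± 1.70 (n = 2 probe sets). TWSG1, which binds BMPs outside the cell, was 1.25 ± 0.19 higher than vehicle with ERα17p and 1.10 ± 0.34 higher with estradiol (n = 2 probe sets).

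FLRT3, a leucine-rich membrane protein that associates with FGF receptors in Xenopus and binds UNC5 and latrophilin receptors, was highest with the peptide in both of its probe sets. Set 219250_s_at had a value of 1.05 with ERα17p, −0.08 with estradiol and −1.13 with vehicle. Set 222853_at had a value of 1.18 with ERα17p, −0.16 with estradiol and −0.73 with vehicle. Both sets put the arrays in the same order, with estradiol between peptide and vehicle. The mean difference was 1.23 ± 0.15 for ERα17p minus estradiol (SD, n = 2 probe sets; 2.35-fold), 2.04 ± 0.19 for ERα17p minus vehicle and 0.81 ± 0.34 for estradiol minus vehicle. The last was 0.57, under 1.5-fold, without the probe set open to cross-hybridisation.

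LRIG3, a leucine-rich membrane protein related to LRIG1, followed the same order. Probe set 226908_at had a value of 1.18 with ERα17p, −0.10 with estradiol and −0.57 with vehicle. The difference was 1.27 for ERα17p minus estradiol (2.42-fold), 1.75 for ERα17p minus vehicle and 0.47 for estradiol minus vehicle. LRIG1, which promotes the degradation of ErbB receptors and MET, had no such pattern. Its 4 probe sets had values of −0.28 to 0.02 with ERα17p, −0.37 to 0.16 with estradiol and −0.73 to 0.25 with vehicle, and did not agree on which array was highest. The mean difference was −0.09 ± 0.34 for ERα17p minus estradiol (SD, n = 4 probe sets), 0.11 ± 0.40 for ERα17p minus vehicle and 0.20 ± 0.58 for estradiol minus vehicle. In each case the SD over probe sets exceeded the difference, and all 4 sets are of the types open to cross-hybridisation.

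**Figure D2:**
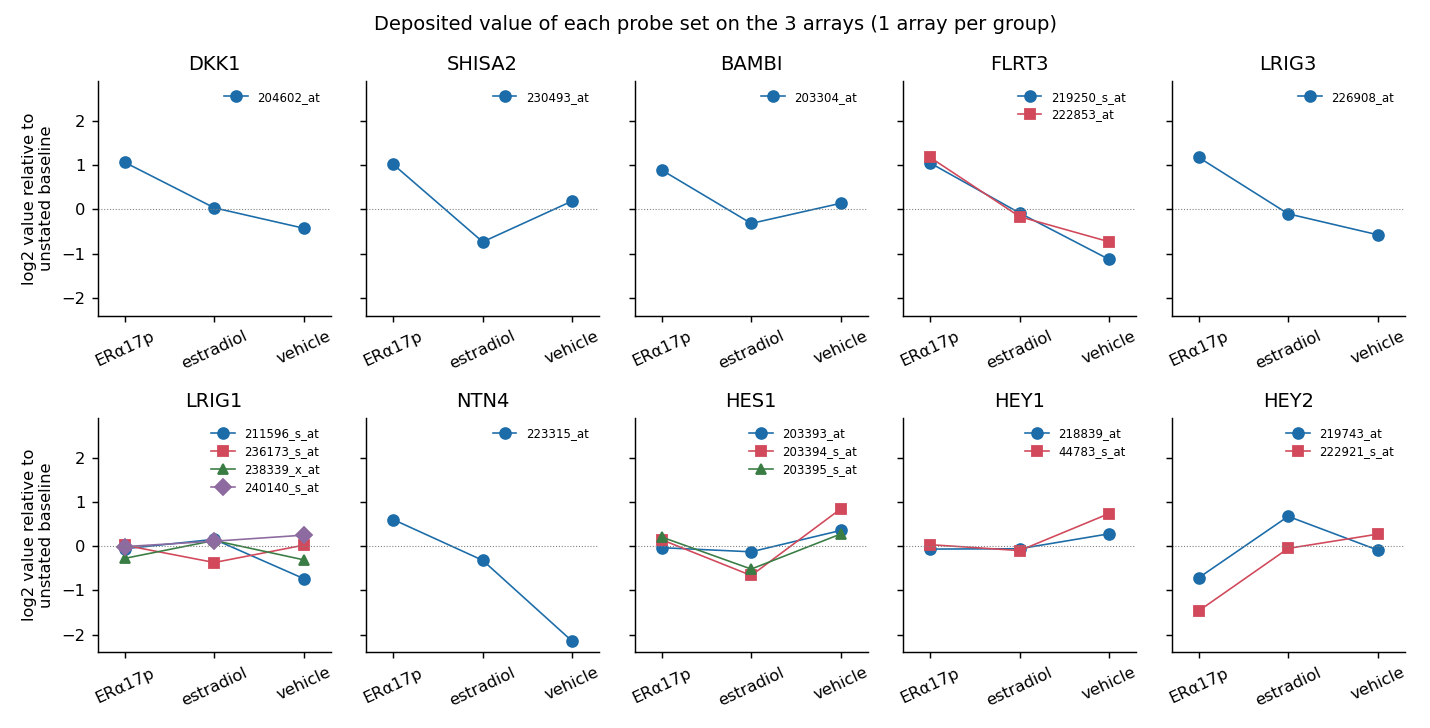
Deposited log2 value of every probe set of the 10 genes, relative to an unstated baseline, on the ERα17p, estradiol and vehicle arrays (1 array each). Each symbol and colour is 1 probe set, and lines only join its 3 values. DKK1, SHISA2, BAMBI, FLRT3, LRIG3 and NTN4 are highest on the ERα17p array, whereas both HEY2 probe sets are lowest there, at −0.71 and −1.46.

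Of the other FGF and ErbB genes, 56 of 59 were measured. Past 1.5-fold, 0 were higher and 1 lower for ERα17p minus estradiol, and 4 were higher and 1 lower against the vehicle with either agent. The share of the list past the size was 1.79% between the treated arrays and 8.93% against the vehicle with either agent. Of all genes, 0.521% were higher and 0.607% lower between the treated arrays. Against the vehicle, 6.88% were higher and 8.76% lower with ERα17p, and 6.48% and 8.42% with estradiol. The medians were −0.02 for ERα17p minus estradiol, −0.01 for ERα17p minus vehicle and 0.01 for estradiol minus vehicle. The 1 lower gene was RET, a receptor tyrosine kinase for ligands of the GDNF family, at −0.82 ± 0.41 (n = 3 probe sets). FGFR1, FGFR2, FGFR3 and FGFR4 lay between −0.09 and 0.12 in that comparison, with n of 2 to 11 probe sets. EGFR stood at −0.09 ± 0.45 (n = 9 probe sets), ERBB2 at −0.03 ± 0.26 (n = 3), ERBB3 at 0.24 ± 0.17 (n = 5), ERBB4 at −0.38 ± 0.17 (n = 4) and MET at 0.11 ± 0.24 (n = 4). No FGF or ErbB receptor of this group passed 1.5-fold between the treated arrays. Against the vehicle, EGFR stood at 0.76 ± 0.85 with ERα17p and 0.85 ± 0.99 with estradiol. SPRY2, a feedback inhibitor of receptor tyrosine kinase signalling, was 0.87 higher with ERα17p and 0.63 higher with estradiol (1 probe set). SOCS5, which promotes EGFR degradation, stood at 0.72 ± 0.24 with ERα17p and 0.43 ± 0.19 with estradiol (n = 3 probe sets). The ErbB ligand NRG4 stood at 0.34 with ERα17p and 0.67 with estradiol (1 probe set).

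NTN4, a secreted netrin that binds laminin, had the widest range over the 3 arrays of the 18 probe sets. Probe set 223315_at had a value of 0.60 with ERα17p, −0.32 with estradiol and −2.15 with vehicle. Both treated arrays stood far above the vehicle array, and the peptide stood above the hormone. The difference was 2.75 for ERα17p minus vehicle, the second highest of all genes, 1.83 for estradiol minus vehicle, and 0.92 for ERα17p minus estradiol (1.89-fold). The promoter of the more upstream of its annotated starts is shown, from RefSeq, because it holds the single estrogen receptor element AGGTCA, read on the opposite strand and given in capitals. The 250 bases before the start lie on the minus strand of GRCh38.p14 at chr12:95791156-95791405.
NTN4: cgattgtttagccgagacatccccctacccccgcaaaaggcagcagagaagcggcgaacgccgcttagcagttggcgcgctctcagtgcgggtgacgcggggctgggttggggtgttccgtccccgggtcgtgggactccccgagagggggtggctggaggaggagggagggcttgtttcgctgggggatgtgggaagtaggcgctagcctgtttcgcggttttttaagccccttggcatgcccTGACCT
The element takes up the last 6 bases before the start. It was present in 13.8% of all promoter windows, and among the 10 genes also before 1 of the LRIG1 starts. The paired form of the element, GGTCA and TGACC with 3 bases between them, was present in 0.057% of all windows and in 0 of the 14 windows of these genes.

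Among netrins, guidance receptors and laminins, 32 of 34 other genes were measured. Past 1.5-fold, 0 were higher and 1 lower for ERα17p minus estradiol, 4 higher and 3 lower for ERα17p minus vehicle, and 4 higher and 2 lower for estradiol minus vehicle. Either way, 3.125%, 21.9% and 18.75% of the list passed in the same order. Of all genes, 0.521%, 6.88% and 6.48% were higher and 0.607%, 8.76% and 8.42% lower. The medians were 0.01, −0.02 and −0.06. The 1 lower gene was DSCAM, a cell adhesion molecule that can act as a netrin receptor, at −0.63 ± 0.23 (n = 3 probe sets). LAMC1, which encodes the laminin chain that NTN4 binds, stood at 0.08 ± 0.04 between the treated arrays, and at 0.74 ± 0.56 with ERα17p and 0.66 ± 0.53 with estradiol against the vehicle (n = 2 probe sets). LAMB1 was 1.38 ± 0.41 and 1.001 ± 0.58 higher than vehicle with ERα17p and estradiol (n = 2 probe sets), whereas LAMB2 stood at −1.40 and −1.31 (1 probe set). The 2 laminin chains thus lay on opposite sides of the 1 shared vehicle array on both treated arrays. The axon guidance receptor ROBO2 was 1.32 ± 0.78 and 1.18 ± 0.55 higher (n = 3 probe sets). UNC5B, a netrin and FLRT receptor, differed by −0.03 ± 0.12 between the treated arrays, and by −0.88 ± 0.80 with ERα17p and −0.85 ± 0.68 with estradiol against the vehicle (n = 3 probe sets). The netrin receptors DCC and NEO1 and the FLRT3 partner ADGRL3 lay between −0.10 and −0.02 for ERα17p minus estradiol.

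The 3 Notch target repressors did not share 1 order of the arrays. HEY2 was lowest with the peptide. HES1 and HEY1 were lower than vehicle on both treated arrays. By the mean over probe sets, neither HES1 nor HEY1 differed by 1.5-fold between the treated arrays. HES1 was lowest with estradiol in each of its probe sets, whereas those of HEY1 did not agree on which treated array was lower. All 3 are basic helix-loop-helix proteins that bind DNA and repress transcription.

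HEY2 probe set 219743_at had a value of −0.71 with ERα17p, 0.67 with estradiol and −0.09 with vehicle. Set 222921_s_at had a value of −1.46 with ERα17p, −0.05 with estradiol and 0.27 with vehicle. Both sets put the peptide array lowest, but they did not agree on whether estradiol or vehicle was highest. The mean difference was −1.40 ± 0.02 for ERα17p minus estradiol (SD, n = 2 probe sets; 2.64-fold lower), −1.18 ± 0.78 for ERα17p minus vehicle and 0.22 ± 0.77 for estradiol minus vehicle. The close match of the sets therefore held between the treated arrays and not against the vehicle array. Without the set open to cross-hybridisation, the differences from the vehicle were −0.63 with ERα17p and 0.76 with estradiol.

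HES1 probe set 203394_s_at had a value of 0.15 with ERα17p, −0.66 with estradiol and 0.84 with vehicle. Set 203395_s_at had a value of 0.21 with ERα17p, −0.52 with estradiol and 0.28 with vehicle. Set 203393_at had a value of −0.03 with ERα17p, −0.13 with estradiol and 0.36 with vehicle. The order vehicle, peptide, estradiol was the same in all 3 sets, while the size of the gaps was not. The mean difference was 0.54 ± 0.39 for ERα17p minus estradiol (SD, n = 3 probe sets), −0.39 ± 0.31 for ERα17p minus vehicle and −0.93 ± 0.52 for estradiol minus vehicle. Only 203393_at is free of the types open to cross-hybridisation, and with it alone the differences were 0.09, −0.39 and −0.48 in the same order.

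HEY1 probe set 44783_s_at had a value of 0.03 with ERα17p, −0.10 with estradiol and 0.74 with vehicle. Set 218839_at had a value of −0.07 with ERα17p, −0.06 with estradiol and 0.28 with vehicle. The vehicle array was highest in both sets, and the treated arrays lay close together. The mean difference was 0.06 ± 0.10 for ERα17p minus estradiol (SD, n = 2 probe sets), −0.52 ± 0.25 for ERα17p minus vehicle and −0.59 ± 0.35 for estradiol minus vehicle. The last was −0.34, under 1.5-fold, with 218839_at alone.

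The promoters of HES1 and HEY2 are shown, from RefSeq, because both genes are Notch targets but differed from each other in which array was lowest. Capitals mark the RBPJ core TGGGAA on either strand. The 250 bases before each start lie on the plus strand of GRCh38.p14, for HES1 at chr3:194135898-194136147 and for HEY2 at chr6:125749382-125749631.
HES1: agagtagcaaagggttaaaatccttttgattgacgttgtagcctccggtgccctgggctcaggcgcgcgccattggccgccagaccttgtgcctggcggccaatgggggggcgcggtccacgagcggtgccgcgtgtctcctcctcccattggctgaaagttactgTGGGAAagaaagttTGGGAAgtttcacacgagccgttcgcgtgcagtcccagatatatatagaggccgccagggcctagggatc
HEY2: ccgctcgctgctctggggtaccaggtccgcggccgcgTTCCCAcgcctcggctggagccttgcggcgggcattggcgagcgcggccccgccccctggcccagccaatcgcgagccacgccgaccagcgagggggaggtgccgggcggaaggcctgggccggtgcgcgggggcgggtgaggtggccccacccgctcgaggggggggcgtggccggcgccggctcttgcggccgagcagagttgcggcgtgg
In HES1 the core begins 84 and 70 bases before the start, both times on the strand of the gene. In HEY2 it begins 213 bases before the start on the opposite strand, and a further match spans the start and is not within the stretch shown. The core was present in 24% of all promoter windows, and among these genes also in windows of LRIG1, LRIG3 and NTN4. HES1 also held the N box CACNAG, which HES proteins bind, 4 times in its window (38% of all windows), and the class C site CACGCG 2 times (11.4%).

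Of the other Notch genes, 51 of 53 were measured. Past 1.5-fold, 0 were higher and 0 lower for ERα17p minus estradiol, 4 higher and 8 lower for ERα17p minus vehicle, and 4 higher and 6 lower for estradiol minus vehicle. Either way, 0%, 23.5% and 19.6% of the list passed in the same order. Of all genes, 0.521%, 6.88% and 6.48% were higher and 0.607%, 8.76% and 8.42% lower. The medians were 0.03, −0.07 and −0.08. NOTCH1 stood at −0.02 ± 0.07 (n = 2 probe sets), NOTCH2 at 0.03 ± 0.15 (n = 4), NOTCH3 at −0.08 ± 0.26 (n = 2), the ligand JAG1 at −0.12 ± 0.23 (n = 6) and RBPJ at 0.11 ± 0.07 (n = 3) for ERα17p minus estradiol. These receptors, JAG1 and RBPJ were all within 0.12 of 0. They were named whatever their difference, while HEY2 was picked on it, so no contrast with HEY2 is drawn. Against the vehicle, NOTCH2 was 0.97 ± 0.44 higher with ERα17p and 0.94 ± 0.49 higher with estradiol. ADAM10, a protease that cleaves Notch, was 1.26 ± 0.87 and 1.26 ± 1.02 higher (n = 3 probe sets). LFNG, a glycosyltransferase that modifies Notch, stood at −1.02 ± 0.64 with ERα17p and −0.89 ± 0.97 with estradiol (n = 2 probe sets), and its relative RFNG at −0.85 and −0.99 (1 probe set). MAML2, a coactivator of Notch, stood at 1.05 ± 1.32 with ERα17p and 0.70 ± 0.88 with estradiol (n = 2 probe sets), and the Notch regulator DTX2 at −0.97 and −1.01 (1 probe set). By the mean over probe sets, each of these genes lay on the same side of the vehicle with both agents. For MAML2 with both agents and LFNG with estradiol, the SD over probe sets exceeded the difference. Both comparisons share the 1 vehicle array, which had the widest spread, so nothing is read from the shared side.

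**Figure D3:**
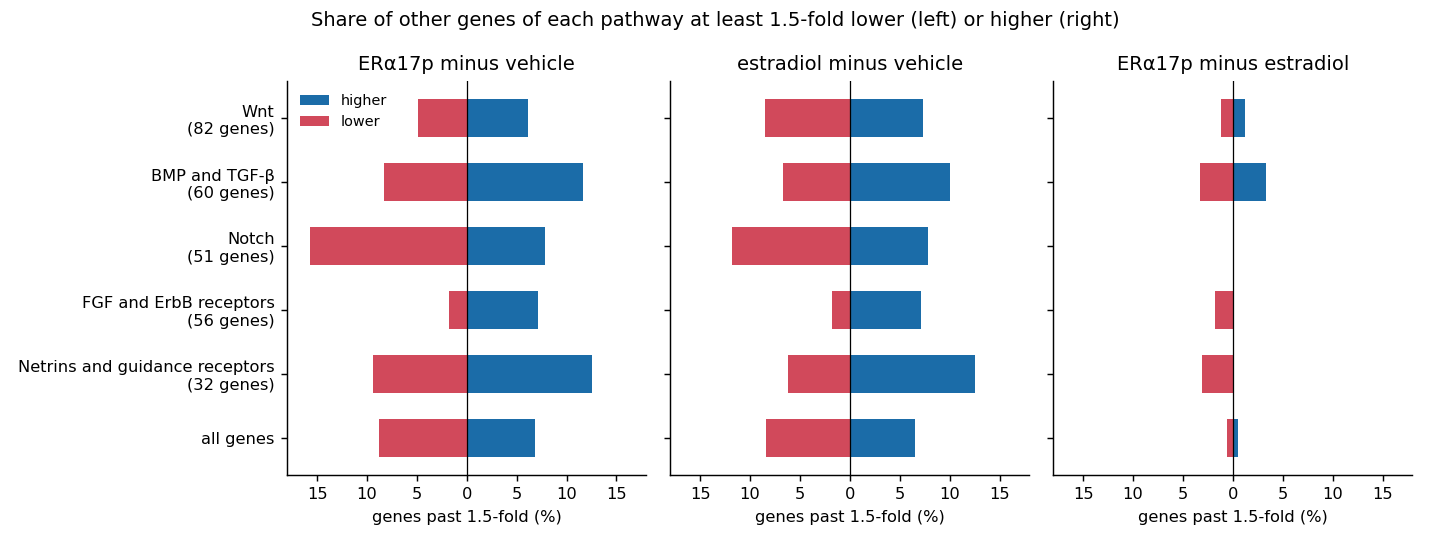
Share of the other measured genes of each pathway that were at least 1.5-fold lower (bars to the left) or higher (bars to the right), in percent, for ERα17p minus vehicle, estradiol minus vehicle and ERα17p minus estradiol, with all 19775 genes in the bottom row. Between the ERα17p and estradiol arrays the 5 pathways had 0 to 4 genes past that size, and Notch had 0.

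In all, 281 of 296 listed pathway genes other than the 10 were measured. For ERα17p minus estradiol, 3 were higher and 5 lower past 1.5-fold, with a median of 0.02. The corresponding counts were 24 and 21 for ERα17p minus vehicle and 24 and 20 for estradiol minus vehicle, with medians of −0.003 and −0.01. Past the size in the 3 comparisons were 2.85%, 16.0% and 15.7% of these genes. Over all genes, 0.521%, 6.88% and 6.48% were higher and 0.607%, 8.76% and 8.42% lower. Against the vehicle the shares were thus close to those of all genes. The lists were chosen with earlier results known, so the counts are not read as a response of the pathways.

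The genes nearest in pattern were sought for SHISA2, HEY2 and LRIG3, which had the largest differences between the treated arrays. The measure was the Euclidean distance between the pairs of differences from the vehicle, over 3 arrays. The members were picked mainly on the gap between these differences. Nothing is therefore read from a member being near another, and a near gene has a similar gap by construction. Nearest to LRIG3 was DKK1, at a distance of 0.26, followed by GRHL3 at 0.40 and TGFB2 at 0.42. Nearest to SHISA2 were COX3 at 0.41, BAMBI at 0.47 and IL36G at 0.60. Nearest to HEY2 were CITED1 at 0.22, MYB at 0.23 and MPPED2 at 0.26, whose ERα17p minus estradiol differences were −1.09, −1.14 and −1.22. Among estrogen-responsive genes in the same comparison, MYC stood at −1.70 and TFF1 at −0.74 (1 probe set each), PGR at −0.55 ± 0.24 (n = 2 probe sets) and GREB1 at −0.70 ± 0.60 (n = 3 probe sets). ESR1, which encodes the receptor, stood at 0.08 ± 0.25 (n = 9 probe sets). These genes did not share a direction against the vehicle. TFF1 stood at −2.92 with ERα17p and −2.19 with estradiol, whereas MYC stood at 0.38 and 2.07, PGR at 0.88 ± 0.04 and 1.44 ± 0.28, and GREB1 at 0.24 ± 0.25 and 0.94 ± 0.84. On the vehicle array the value of TFF1 was 2.22. All of these differences rest on that array, which had the widest spread, so their directions are not read as a response to either agent.

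A promoter window, of 250 bases before and 50 after an annotated start, was at hand for 9 of the 10 genes. Some have several starts, so there were 14 windows, of which 4 belong to LRIG1, with 2 of these overlapping. G or C made up a median of 67.3% of these windows, from 48.7% in FLRT3 to 80.0% in BAMBI, beside a median of 58.7% over all windows. Of 10 short motifs, searched on both strands, 0 were common to all 6 genes that were higher with the peptide. The FLRT3 window held 0 of the 10. The AP-1 motif TGANTCA was present before 1 start of LRIG1 (7.71% of all windows), and the E box CACGTG before 1 start of LRIG3 (7.26%). The SHISA2 window held the GGCGCC element 2 times, and the HEY2 window held it 1 time. Matches of different motifs did not overlap in these windows. A match is a string of letters in a window, and neither a match nor its absence says whether a factor was bound.

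**Figure D4:**
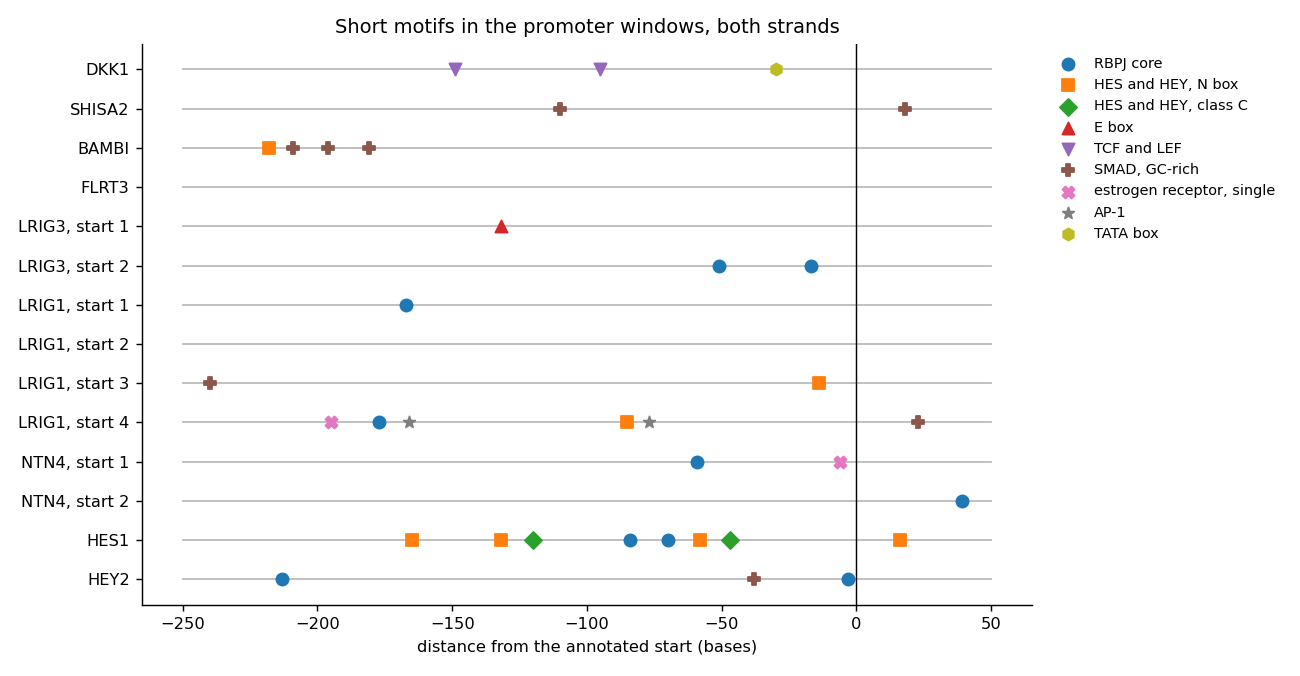
Position of short motifs in the promoter windows of 9 genes, in bases from the annotated start (0), with 1 line per start and 1 symbol per motif at its first base. DKK1 alone holds the TCF and LEF core and the TATA box, BAMBI holds 3 SMAD elements, HES1 holds 2 RBPJ cores, and FLRT3 holds none of the motifs.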

How the data were processed

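Biotin-labelled total RNA from T47D cells was hybridised to Affymetrix HG-U133 Plus 2 arrays, 3 in all and 1 per group, grouped by their labels. Per the submitters' processing notes RMA gave the deposited values, which were taken as log2 because that is the scale of RMA. For the step that set probe sets relative to a baseline, and for the base of the logarithm, the sources used here give no details. Fold sizes hold only for log2.

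Probe sets with 1 gene in the platform annotation were used (41091 of 54675), and 62 control, 1801 several-gene and 11721 unnamed probe sets were left out. A gene's difference is the mean over its probe sets, and ± is the SD over them. It covers probe noise within these arrays and not the spread between cultures. Signal over background is unknown, and 1 array per group limits the precision. Genes were counted at 1.5-fold.

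The members and lists were chosen with earlier results of these data known. Named genes were the 10 members, up to 3 per list and comparison with the largest difference past 1.5-fold, a set of binding partners, the 3 genes nearest to each of 3 members, and a few estrogen-responsive genes. Promoters are RefSeq's for GRCh38.p14. HEY1 was not among them, and proteins were not analysed here. Counting was tested on simulated data. Python 3.11.15, numpy 2.4.6, pandas 2.3.3 and matplotlib 3.10.9 were used. Alternatives were other probe sets (without identifiers ending in _x_at or _s_at, the types open to cross-hybridisation), the median over its probe sets, centring on the median over genes, a 2-fold size, and every probe set past the size.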

Additional observations from a re-analysis of the deposited data

How the results depend on the processing

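For estradiol minus vehicle, the 5 members past 1.5-fold became 3 once sets open to cross-hybridisation were dropped, 1 at 2-fold and 2 where every probe set had to pass. Of the 3, NTN4 and SHISA2 were among the 5 and HEY2 was newly past the size, at 0.76, while FLRT3, HES1 and HEY1 were no longer past it. LRIG1 has no other probe set and dropped out. For the other comparisons the count of 7 ranged from 5 to 7 for ERα17p minus vehicle and from 6 to 8 for ERα17p minus estradiol, and 8 came from taking the median over probe sets. Shares of all genes are given above for the 2-fold size and for every probe set past the size, and were not computed for the other alternatives. The members were picked mainly on the difference between the treated arrays, so nothing is read from how steady the counts were. The typical SD of a gene over its probe sets was 0.28 for ERα17p minus vehicle, 0.29 for estradiol minus vehicle and 0.16 for ERα17p minus estradiol. Member medians moved by less than this under every alternative run on them, although it is a wide measure for a median over genes. The largest move was for estradiol minus vehicle, from 0.21 to 0.46 without the sets open to cross-hybridisation. For single members, the alternatives could change little by construction, since 5 members have 1 probe set and centring shifts every gene alike. HES1 for ERα17p minus estradiol was 0.09 with its 1 remaining probe set. No paired analysis was possible because each group had 1 array. DKK1, SHISA2, BAMBI, LRIG3 and NTN4 rest on 1 probe set each.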
